A study of Bos indicus x Bos taurus with 17 samples.

Results

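The insulin-like growth factor (IGF) family was examined as 10 genes, the ligands IGF1 and IGF2, the receptors IGF1R and IGF2R, and the binding proteins IGFBP1 to IGFBP6. They were chosen by gene symbol, and each of the 10 was found once among the 21048 genes counted. Expression was measured by RNA sequencing in liver and skeletal muscle of bovine fetuses at about day 105 of gestation. The fetuses were F1 crosses of Nelore (Bos taurus indicus) and Holstein (Bos taurus taurus) cattle and are recorded as healthy. In the Control group, Control 2 and Control 4 were conceived by artificial insemination. In the ART group, ART 1 to ART 4 were conceived by assisted reproductive technology, which the study's methods describe as in vitro production with body weights similar to those of the controls, although ART 4 is in the sample labels only. Each of the 6 fetuses gave 1 liver and 1 muscle library, so 12 libraries were compared, and overgrown ART fetuses and kidney were not analysed here. The sexes of the fetuses were not given in the sources used here.

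IGF1 and IGF2 are small secreted hormones that drive fetal growth. Both signal mainly through the tyrosine kinase receptor IGF1R, whereas IGF2R, also known as the mannose 6-phosphate receptor, takes up IGF2 and delivers it to lysosomes. The binding proteins hold IGFs in the circulation and around cells and set how much ligand reaches the receptor. IGF2 and IGF2R are imprinted genes, with IGF2 expressed mainly from the paternal copy and IGF2R mainly from the maternal copy in many mammals.

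Total counts per library were 18454088 to 43339598 in liver and 12433300 to 23578362 in muscle. Levels are given as CPM, read counts scaled to a common library total, after TMM normalization, which corrects for differences in library composition. The tissue labels were checked against 12 hepatocyte and 12 skeletal muscle markers, all of which exceeded 1 CPM in their own tissue in every fetus. In the other tissue 3 to 11 hepatocyte markers and 3 to 9 muscle markers also did so, but skeletal muscle markers summed to 25461 to 37582 CPM in muscle and to 9.64 to 59.8 CPM in liver. The Control 2 libraries stood apart from the other 5 fetuses in both tissues on the first principal component, which carried 50.2% of the variance in liver and 50.3% in muscle. Summed over the marker lists, hepatocyte markers reached 372216 CPM in the liver of Control 2 against 41594 to 75679 CPM in the other livers, and erythroid markers 26585 CPM against 7866 to 8951 CPM. Its muscle held 411 CPM of hepatocyte markers against 26.3 to 68.2 CPM in the other muscles. The markers of a list did not move alike, so these sums do not measure cell numbers. Over all livers AHSG ranged from 3961 to 150366 CPM and HBG from 1123 to 20573 CPM. The ranges were 1111 to 1816 CPM for CPS1, 224 to 293 CPM for HNF4A and 1659 to 1873 CPM for the erythroid marker SLC4A1. The part of these differences in the values of the IGF family was not tested, and values without Control 2 are given with the comparisons of ART and Control.

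The coordinates of the family are on the ARS-UCD1.2 build, and each gene was counted over its whole span, introns included. IGF1 (gene 281239) lies at chr5:66185922-66264134 on the minus strand and IGF2 (281240) at chr29:49395153-49422469 on the plus strand. IGF1R (281848) covers 300676 bp at chr21:7780293-8080968 on the plus strand, and IGF2R (281849) lies at chr9:96197493-96300019 on the plus strand. IGFBP4 (282262) is at chr19:40672669-40684257 on the plus strand and IGFBP6 (404186) at chr5:26878961-26883026 on the minus strand. The other 4 binding protein genes form 2 neighbouring pairs. IGFBP2 (282260) at chr2:104619962-104648632 on the plus strand faces IGFBP5 (404185) at chr2:104656175-104680027 on the minus strand across 7542 bp. IGFBP3 (282261) at chr4:76116379-76124833 on the plus strand faces IGFBP1 (282259) at chr4:76131285-76136236 on the minus strand across 6451 bp. No listed gene lies between the members of either pair. Only IGF1R overlaps another listed gene, LOC112443225 on the opposite strand, which reached at most 0.386 CPM in liver and 0.367 CPM in muscle.

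**Figure D1:**
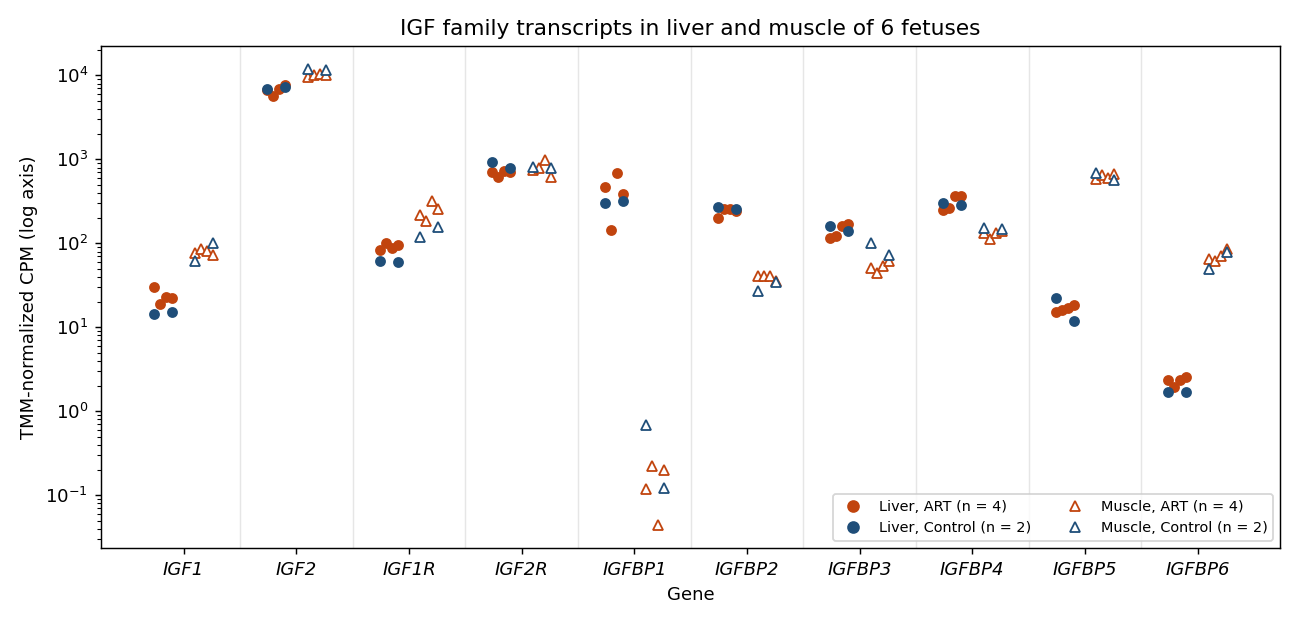
Levels of the 10 IGF family genes in liver (filled circles) and muscle (open triangles) of 4 ART fetuses (orange) and 2 Control fetuses (blue), 1 point per library, in TMM-normalized CPM on a log axis. Liver and muscle points are apart for every gene except IGF2R, and IGFBP1 spans the widest range, from 0.0438 to 697 CPM.

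The first question was how the family is distributed between the tissues. Of the 10 genes, 4 were higher in liver (IGFBP1, IGFBP2, IGFBP3 and IGFBP4), 5 were higher in muscle (IGF1, IGF2, IGF1R, IGFBP5 and IGFBP6), and IGF2R did not pass the test. These 9 calls (edgeR quasi-likelihood test, Benjamini-Hochberg adjusted p of 0.05 or lower over 12449 genes) stand against a background in which 81.5% of all genes tested were called, 40.8% as higher in liver and 40.7% as higher in muscle. With a change of at least 2-fold also required, 8 members were called against 46.2% of all genes, 4 as higher in liver, against 22.3%, and 4 as higher in muscle, against 23.9%. The liver and muscle values did not overlap for 9 of the 10 members, against 64.9% of all genes tested. Of these 9, 4 were above muscle in every liver, against 32.1%, and 5 were below, against 32.9%. The median log2 fold change of liver over muscle was -0.36 over the 10 members and 0.01 over all genes tested. IGFBP1 entered the test only through its liver level and IGFBP6 only through its muscle level, so a difference in these genes was set by the filter. Among the members that passed in both tissues, IGFBP2, IGFBP3 and IGFBP4 were higher in liver. IGF1, IGF2, IGF1R and IGFBP5 were higher in muscle, and IGF2R was not called. In whole tissue, fewer cells of a type and less RNA per cell cannot be told apart. Connective tissue markers, for instance, summed to 23690 to 31656 CPM in muscle and 1014 to 1714 CPM in liver, with all 10 of the list in the tables, and their part in the tissue differences was not tested.

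IGF1, the ligand whose postnatal production by liver depends on growth hormone, was lower in these fetal livers than in muscle. Its level was 30.2, 19.04, 22.7 and 22.6 CPM in the livers of ART 1 to ART 4, and 14.6 and 15.1 CPM in those of Control 2 and Control 4. In muscle it was 76.9, 85.7, 81.5 and 72.5 CPM in ART 1 to ART 4, and 61.3 and 102 CPM in Control 2 and Control 4. Every muscle library was therefore above every liver library. The log2 fold change of liver over muscle was -1.98 (SE 0.16, adjusted p = 4.37e-08), a level 3.94-fold higher in muscle.

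IGF2, the main fetal growth ligand, was abundant in both tissues. The livers of ART 1 to ART 4 held 6650, 5647, 6935 and 7668 CPM of IGF2, and those of Control 2 and Control 4 held 6984 and 7257 CPM. In muscle, its level was 9686, 10047, 10528 and 10065 CPM in ART 1 to ART 4, and 12003 and 11634 CPM in Control 2 and Control 4. The tissues again did not overlap, and the log2 fold change was -0.63 (SE 0.18, adjusted p = 0.00586), which is 1.55-fold higher in muscle. Divided by the length of the gene span, IGF2 had a mean level of 251 CPM per kb in liver and 390 CPM per kb in muscle. These were the highest levels per span of the family, followed by IGFBP1 at 78.0 CPM per kb in liver and IGFBP5 at 26.1 CPM per kb in muscle. Spans include introns, so this order is not one of transcript abundance. In mean CPM, IGF2R was above both, with 747 against 386 for IGFBP1 in liver and 794 against 623 for IGFBP5 in muscle. IGF2 also varied little among the ART muscles, with an SD of 0.05 on the log2 scale that lay at percentile 2.47 of all genes in these libraries.

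IGF1R, the receptor that carries the growth signal, was measured at 83.9, 101, 87.2 and 96.2 CPM in the livers of ART 1 to ART 4, and at 61.2 and 59.6 CPM in those of Control 2 and Control 4. The muscles held 215, 186, 323 and 257 CPM in ART 1 to ART 4, and 119 and 157 CPM in Control 2 and Control 4. The lowest muscle value was above the highest liver value. On the log2 scale, the liver level differed from the muscle level by -1.34 (SE 0.13, adjusted p = 2.20e-07), or 2.53-fold.

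IGF2R, which clears IGF2, was the only member whose tissues overlapped. Its liver level was 707, 613, 719 and 713 CPM in ART 1 to ART 4, and 944 and 784 CPM in Control 2 and Control 4. In muscle it was 756, 795, 976 and 614 CPM in ART 1 to ART 4, and 821 and 800.5 CPM in Control 2 and Control 4. Liver was above muscle in 2 of 6 fetuses, and the log2 fold change of -0.10 (SE 0.13, adjusted p = 0.488) had a 95% interval of -0.37 to 0.18.

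The 4 largest fold changes of the family between the tissues were those of IGFBP1, IGFBP5, IGFBP6 and IGFBP2. IGFBP1, a secreted protein made mainly by hepatocytes and regulated by insulin, was measured at 466, 144, 697 and 384 CPM in the livers of ART 1 to ART 4, and at 306 and 320 CPM in those of Control 2 and Control 4. It was close to absent from muscle, where the 6 libraries held 1 to 9 reads each and 24 reads in all, or 0.0438 to 0.685 CPM. The highest of these, 0.685 CPM, was in Control 2, the muscle that also had the most hepatocyte marker RNA. With 56471 reads in liver, the ratio of library-scaled counts of liver over muscle was 1848, with a 95% counting interval of 1242 to 2885 that covers counting error only. The fitted log2 fold change was 10.89 (SE 0.51, adjusted p = 7.76e-11). IGFBP1 passed the filter only through liver, so its p-value is not support for a difference. Among the ART livers IGFBP1 spread over a 4.84-fold range, and its SD of 0.97 on the log2 scale was at percentile 99.4 of all genes.

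IGFBP2, a binding protein typical of fetal serum, was also a liver transcript. Its level was 200, 258, 258 and 242 CPM in the livers of ART 1 to ART 4, and 275 and 259 CPM in those of Control 2 and Control 4. The muscles held 40.6, 41.1, 40.8 and 35.9 CPM in the ART fetuses, and 27.0 and 34.5 CPM in the Controls. The lowest liver value was thus far above the highest muscle value, and the log2 fold change was 2.77 (SE 0.12, adjusted p = 2.37e-11), or 6.81-fold.

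IGFBP3, which carries most circulating IGF in a complex with the acid-labile subunit after birth, was measured at 115, 121, 159 and 172 CPM in the livers of ART 1 to ART 4, and at 163 and 142 CPM in those of Control 2 and Control 4. Its muscle level was 51.2, 44.6, 53.1 and 61.8 CPM in ART 1 to ART 4, and 102 and 72.3 CPM in Control 2 and Control 4. The muscle of Control 2 came closest to the liver values without reaching them. The log2 fold change of liver over muscle was 1.22 (SE 0.15, adjusted p = 3.03e-06).

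IGFBP4, a binding protein that inhibits IGF action until it is cleaved, was measured at 248, 263, 366 and 367 CPM in the livers of ART 1 to ART 4, and at 305 and 284 CPM in those of Control 2 and Control 4. In muscle, its level was 132, 113, 134 and 141 CPM in ART 1 to ART 4, and 153 and 149 CPM in Control 2 and Control 4. Every liver was above every muscle. The difference was 1.16 on the log2 scale (SE 0.12, adjusted p = 3.95e-07), close to that of IGFBP3.

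IGFBP5, the binding protein associated with muscle differentiation and the extracellular matrix, had the opposite distribution. The livers held 15.2, 16.2, 16.9 and 18.5 CPM in ART 1 to ART 4, and 22.2 and 11.8 CPM in Control 2 and Control 4. The muscles held 578, 644, 604 and 671 CPM in ART 1 to ART 4, and 683 and 561 CPM in Control 2 and Control 4. The log2 fold change was -5.22 (SE 0.15, adjusted p = 7.67e-13), a level 37.2-fold higher in muscle.

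IGFBP6, which binds IGF2 in preference to IGF1, was likewise a muscle transcript. Its liver level was 2.36, 1.97, 2.36 and 2.56 CPM in ART 1 to ART 4, and 1.68 and 1.69 CPM in Control 2 and Control 4, from 23 to 88 reads per library. The muscles held 64.5, 61.8, 70.2 and 85.2 CPM in ART 1 to ART 4, and 50.1 and 79.5 CPM in Control 2 and Control 4. The log2 fold change was -5.03 (SE 0.15, adjusted p = 1.16e-12), or 32.7-fold. IGFBP6 passed the filter only through muscle, so its p-value is not support for a difference. Of the neighbouring pairs, IGFBP2 was higher in liver while the adjacent IGFBP5 was higher in muscle, and IGFBP1 and IGFBP3 were both higher in liver.

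**Figure D2:**
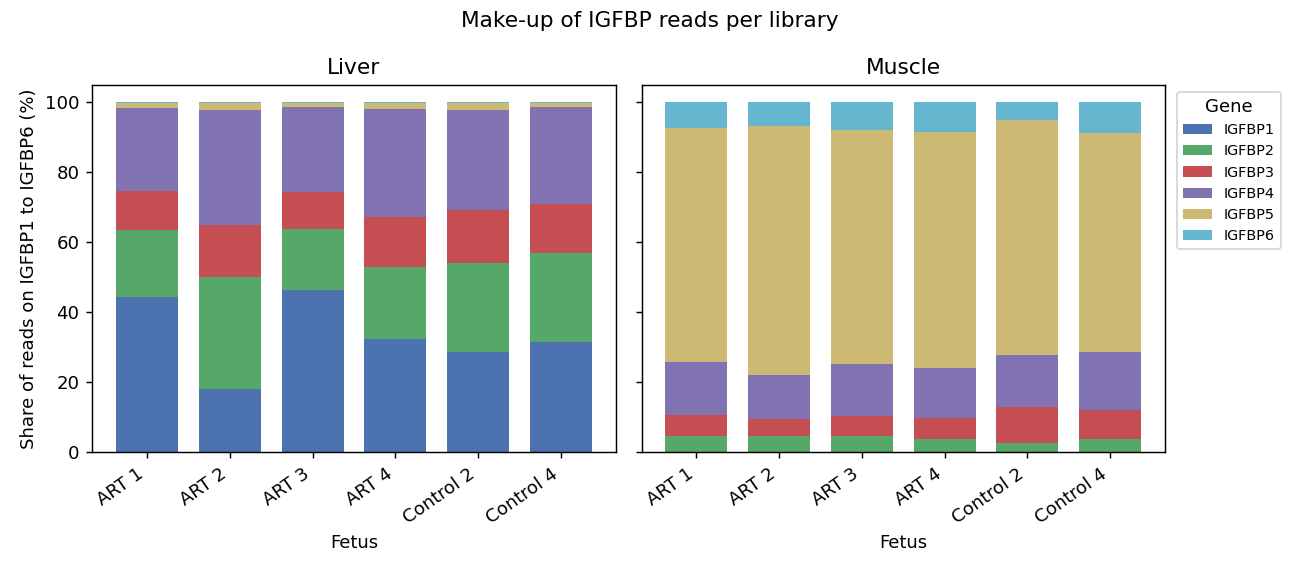
Share of the reads on IGFBP1 to IGFBP6 that fell on each gene (%, stacked to 100%), with 1 bar per fetus, in liver and in muscle. Reads in liver were divided mainly among IGFBP1, IGFBP2, IGFBP3 and IGFBP4, whereas IGFBP5 took 62.6% to 71.2% in every muscle.

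Ratios of members within a library do not depend on how libraries are scaled, and they were compared between the tissues of the same 6 fetuses with an exact two-sided paired permutation test over 64 sign patterns. Of 12 ratios and shares computed, 11 differed between the tissues at an exact p of 0.03125 (adjusted exact p = 0.0341 over the 12). An exact p of 0.03125 is the smallest that 6 pairs allow. The 12 are not separate results, because the shares divide the same total and several ratios use the same genes. IGFBP1 reached the filter only in liver and IGFBP6 only in muscle, so a difference in their shares was given in advance. No background of ratios of other genes was computed for the count of 11. Of all genes tested singly, 81.5% were called between the tissues. Shares are of reads and are not corrected for gene length. IGFBP5 took 1.13% to 2.07% of the binding protein reads in liver and 62.6% to 71.2% in muscle, and IGFBP6 took 0.159% to 0.246% and 4.94% to 8.87%. IGFBP1 took 17.9% to 46.5% in liver and at most 0.0713% in muscle. The share of IGFBP4 was 23.7% to 32.7% in liver and 12.5% to 16.6% in muscle, that of IGFBP2 was 17.2% to 32.1% and 2.67% to 4.68%, and that of IGFBP3 was 10.6% to 15.2% and 4.94% to 10.03%. In the liver of ART 2, where IGFBP1 had its lowest share of 17.9%, IGFBP2 and IGFBP4 had their highest shares. A lower share of IGFBP1 raises the other shares by arithmetic. The levels of IGFBP2 and IGFBP4 in that liver, 258 and 263 CPM, lay within the ranges of all livers, 200 to 275 and 248 to 367 CPM.

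The ligands and receptors were also in different proportions. There were 220 to 480 reads of IGF2 for each read of IGF1 in liver and 114 to 196 in muscle, higher in liver in 6 of 6 fetuses. Per read of its clearance receptor IGF2R, IGF2 had 7.40 to 10.8 reads in liver and 10.8 to 16.4 in muscle. For each read of the signalling receptor IGF1R there were 55.7 to 122 reads of IGF2 in liver and 32.5 to 101 in muscle. IGF1R amounted to 0.0649 to 0.165 reads per read of IGF2R in liver and 0.145 to 0.418 in muscle. Compared with INSR, the insulin receptor, IGF1R was the less counted in every liver, at 0.397 to 0.681 reads per INSR read, and the more counted in every muscle, at 1.18 to 2.36. Only the ratio of IGF1 to IGF1R did not pass, with 0.188 to 0.360 in liver and 0.252 to 0.649 in muscle (exact p = 0.125).

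**Figure D3:**
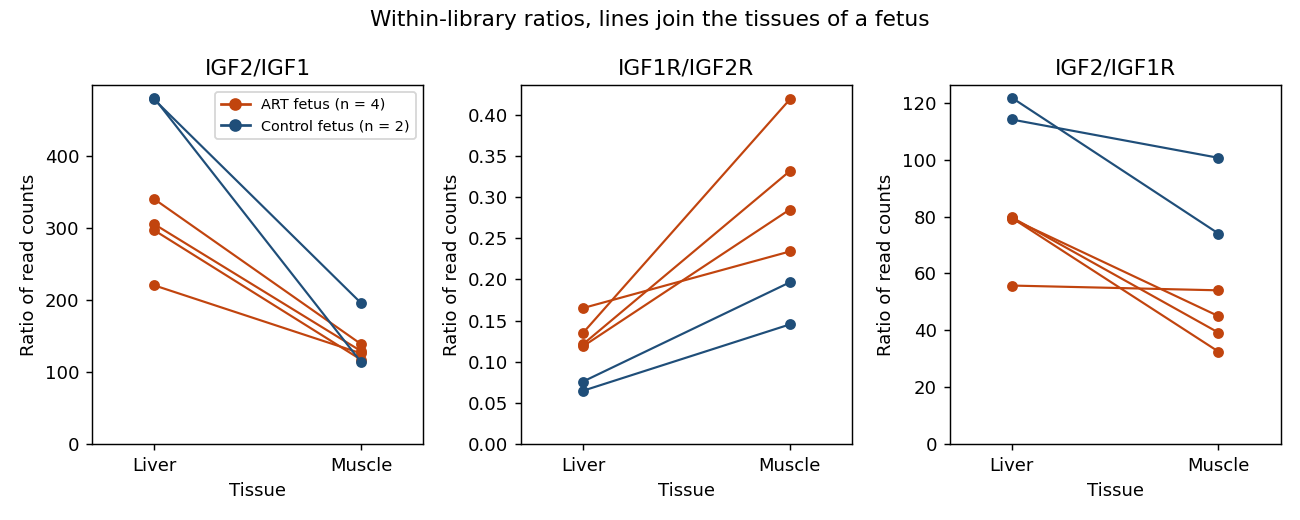
Ratios of read counts within each library for IGF2 over IGF1, IGF1R over IGF2R and IGF2 over IGF1R, in liver and muscle, with a line joining the tissues of each of 4 ART fetuses (orange) and 2 Control fetuses (blue). All 6 lines fall from liver to muscle for IGF2 over IGF1 and for IGF2 over IGF1R and rise for IGF1R over IGF2R, where the ART points lie above the Control points in both tissues.

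The second question was whether the family differed with the method of conception. No member was called between ART and Control in liver, where 9 of 10 members could be tested and 0% of 11304 genes were called (0 genes by the edgeR quasi-likelihood test). In muscle, 0 of 9 members tested were called, and 0.00855% of 11695 genes were. IGFBP6 in liver and IGFBP1 in muscle were below the minimum of 5 CPM and were not tested. At an unadjusted p under 0.05 there were 2 members in liver (IGF1 and IGF1R), against 8.39% of all genes, and 3 in muscle (IGF1R, IGFBP2 and IGFBP3), against 9.19%. The likelihood ratio test of edgeR and the Wald test of DESeq2 each called IGF1R in liver and IGF1R and IGFBP3 in muscle, and these values are given with the genes. Over all genes these tests called 89 and 56 of 11304 in liver and 120 and 106 of 11695 in muscle. The 4 ART and 2 Control values did not overlap for 5 of 10 members in liver, against 18.4% of all genes tested, and for 5 of 10 in muscle, against 16%. The 5 in liver include IGFBP6, which was below the filter there, whereas these shares are of genes that passed it. In liver, all ART values lay above both Controls for IGF1, IGF1R and IGFBP6, against 9.19% of all genes, and below both for IGF2R and IGFBP2, against 9.22%. In muscle they lay above both for IGF1R and IGFBP2, against 7.77%, and below both for IGF2, IGFBP3 and IGFBP4, against 8.21%. The liver levels of Control 2 rest on a TMM factor of 0.75, against 0.966 to 1.04 in the other livers. By library size alone, the liver values of IGF2R and IGFBP2 overlapped between ART and Control. Their log2 fold changes were then -0.11 and 0.0547, against -0.33 and -0.16 with TMM. The median log2 fold change of the members tested was -0.02 in liver and -0.04 in muscle, and over all genes it was 0.01 and 0.00.

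IGF1R was the only member whose ART values lay above both Control values in each tissue. The share of all genes that did so in both tissues was not computed. Both tissues come from the same fetuses, so they are not separate results. The mean of IGF1R was 92.1 ± 8.01 CPM (SD, n = 4) in ART livers and 60.4 CPM in the 2 Control livers. In muscle it was 245 ± 59.7 CPM (SD, n = 4) and 138 CPM. The log2 fold change of ART over Control was 0.61 in liver (SE 0.13, 95% interval 0.31 to 0.91, adjusted p = 0.373) and 0.84 in muscle (SE 0.22, 95% interval 0.35 to 1.32, adjusted p = 0.316). With the likelihood ratio test the adjusted p was 0.0478 in liver and 0.0414 in muscle, and with DESeq2 it was 0.0480 and 0.0244. Without Control 2, whose libraries stood apart, the log2 fold change was 0.64 in both tissues and was not called. Without Control 4, with Control 2 as the lone Control, it was 0.58 in liver and 1.06 in muscle. Whichever Control was left out, the lone Control was assumed to vary like the ART samples. IGF1R spans more of the genome than 95.6% of the genes tested in muscle and 96.5% of those tested in liver. The longest 20% of genes had a median log2 fold change of 0.11 in liver and 0.19 in muscle, and IGF1R stood at percentiles 98.3 and 97.3 among them. Against Control 4 alone these medians were 0.11 and 0.0764, and IGF1R was at 0.62 and 0.61. The part of gene length in its value was not tested.

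**Figure D4:**
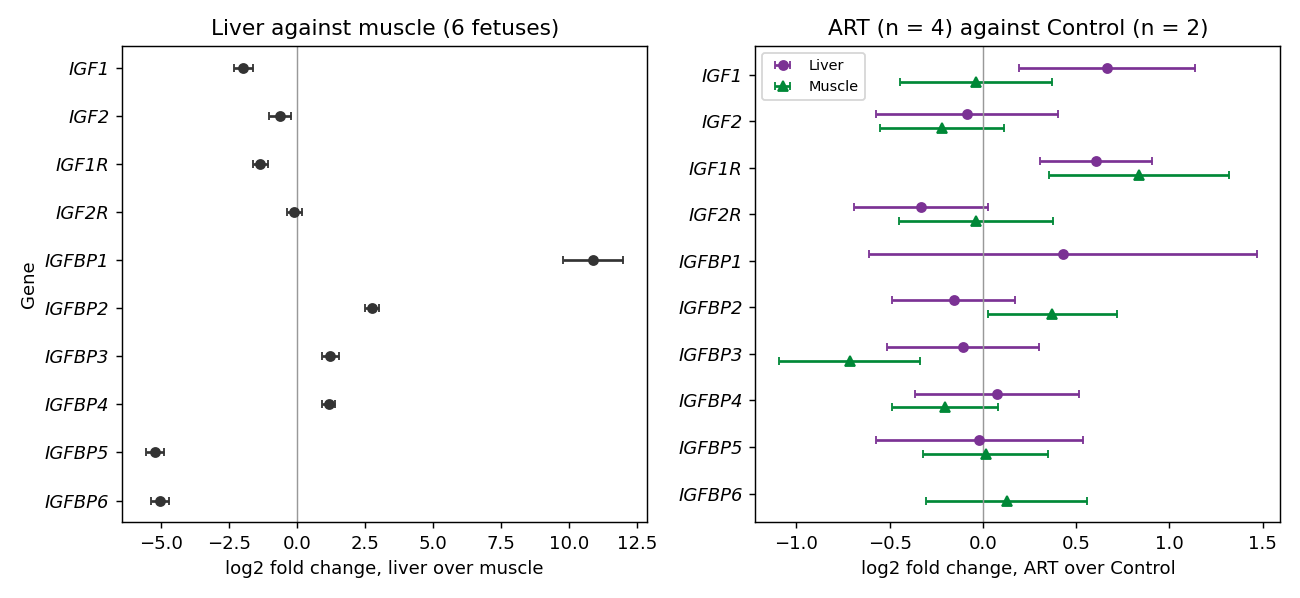
Log2 fold changes of the IGF family genes with 95% intervals from the edgeR quasi-likelihood fit, for liver over muscle in 6 fetuses (left) and for ART (n = 4) over Control (n = 2) in liver and in muscle (right). In the left panel only the interval of IGF2R crosses 0, and in the right panel those of IGF1R lie above 0 in both tissues, although no gene of the family was called after adjustment.

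Of the 12 ratios and shares computed, ART and Control were apart in both tissues in the ratios of IGF1R to IGF2R, IGF1R to INSR and IGF2 to IGF1R. These ratios use the same IGF1R reads, so they are not separate results. Apart in a single tissue were IGF2 to IGF1 in liver, IGF1 to IGF1R in muscle and the share of IGFBP3 in muscle. That share was 4.94% to 6.21% in ART and 8.07% and 10.03% in the Controls. The other shares and ratios overlapped, and no background of ratios of other genes was computed. The ratio of IGF1 to IGF1R overlapped in liver, with 0.188 to 0.360 in ART and 0.239 and 0.254 in the Controls. In muscle it was 0.252 to 0.461 in ART and 0.514 and 0.649 in the Controls. Per read of IGF2R, IGF1R had 0.119 to 0.165 reads in ART livers and 0.0649 and 0.0760 reads in Control livers, and 0.234 to 0.418 reads in ART muscles against 0.145 and 0.196 in Control muscles. Compared with INSR, it had 0.548 to 0.681 reads in ART livers and 0.397 and 0.406 in Control livers. The corresponding values in muscle were 1.85 to 2.36 and 1.18 and 1.53. The reads of IGF2 per read of IGF1R were fewer in ART fetuses, with 55.7 to 79.7 against 114 and 122 in liver and 32.5 to 54.1 against 74.0 and 101 in muscle. An exact permutation test of 4 against 2 fetuses cannot go below p = 0.133, so these ratios were not tested.

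Among the ligands, the liver level of IGF1 was 23.6 ± 4.69 CPM (SD, n = 4) in ART and 14.8 CPM in the Controls (log2 fold change 0.66, SE 0.21, adjusted p = 0.513). In muscle the 2 Controls enclosed all ART values of IGF1, and its log2 fold change was -0.04 (SE 0.18). It turned from -0.37 without Control 2 to 0.39 without Control 4. IGF2 had a log2 fold change of -0.09 in liver (SE 0.22, 95% interval -0.58 to 0.40) and of -0.22 in muscle (SE 0.15, adjusted p = 0.716), where all ART values were below both Control values. In liver, the reads of IGF2 per read of IGF1 numbered 220 to 340 in the ART fetuses and 478 and 480 in the Controls. IGF2R had a log2 fold change of -0.33 in liver (SE 0.16, adjusted p = 0.589) and of -0.04 in muscle (SE 0.19). Without Control 2 the liver values of IGF1, IGF2 and IGF2R were 0.65, -0.10 and -0.18, and the muscle values of IGF2 and IGF2R were -0.21 and -0.03.

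IGFBP3 in muscle had the lowest p-value of the binding proteins between conception groups. Its level was 52.7 ± 7.07 CPM (SD, n = 4) in ART muscles and 87.1 CPM in the 2 Control muscles, a log2 fold change of -0.71 (SE 0.17, 95% interval -1.09 to -0.34, adjusted p = 0.314). The adjusted p was 0.0274 with the likelihood ratio test and 0.0290 with DESeq2. Control 2 had the highest value of all muscles, and without it the log2 fold change was -0.46 and not called. Without Control 4, with Control 2 as the lone Control, it was -0.93. IGFBP2 had a log2 fold change of 0.37 in muscle (SE 0.16, adjusted p = 0.506) and -0.16 in liver (SE 0.15, adjusted p = 0.704), and without Control 2 these were 0.20 and -0.10. IGFBP4 and IGFBP5 had log2 fold changes between -0.20 and 0.07 in the tissues, with adjusted p-values of 0.689 or higher. Without Control 2, IGFBP5 was at 0.51 in liver and 0.15 in muscle, and IGFBP4 at 0.14 and -0.20. IGFBP6 had 2.31 ± 0.247 CPM in ART livers (SD, n = 4) and 1.68 CPM in Control livers, too low to be tested, and a log2 fold change of 0.13 (SE 0.19) in muscle, which was -0.18 without Control 2. For IGFBP1 in liver the log2 fold change of 0.43 (SE 0.46, adjusted p = 0.740) had a 95% interval from -0.61 to 1.47, which includes a 2-fold difference. It was 0.0771 without ART 3, 0.72 without ART 2 and 0.41 without Control 2. IGFBP3 in liver had a log2 fold change of -0.11 (SE 0.18), and 0.0080 without Control 2.

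A difference between conception groups that itself differed between tissues was sought with an interaction term over all 12 libraries. None of the 10 members was called, and 0% of 12923 genes were (0 genes by the edgeR quasi-likelihood test, with 711 at an unadjusted p under 0.05). At that unadjusted level there were 3 members, IGF1, IGFBP2 and IGFBP3, against 5.5% of all genes. IGFBP2 had the lowest adjusted p among the members (0.804), with an interaction of -0.51 on the log2 scale (SE 0.19). For IGF1 it was 0.71 (SE 0.29, adjusted p = 0.857) and for IGFBP3 it was 0.62 (SE 0.27, adjusted p = 0.888). These values depended on which Control fetus was kept. Without Control 2 the interaction was -0.28 for IGFBP2, 1.04 for IGF1 and 0.49 for IGFBP3, and without Control 4 it was -0.75, 0.32 and 0.75, none of them called. The interaction of IGF1R was -0.22 (SE 0.27, 95% interval -0.80 to 0.37), and 0.0205 without Control 2.

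The wider IGF pathway was described with 70 genes in 5 lists, of which 69 were in the tables and H19 was not analysed here. Between the tissues, 59 could be tested, and 21 were higher in liver, 26 were higher in muscle and 12 were not called, with a median log2 fold change of -0.20. The share called was 79.7%, against 81.5% of all genes, with 35.6% higher in liver, against 40.8%, and 44.1% higher in muscle, against 40.7%. Of the 59, 5 entered the test only through liver (among them IGFALS, PLG, HNF4A and LIN28B) and 4 only through muscle (PAPPA, STC2 and, named after their values were seen, STC1 and KAZALD1), so their differences were set by the filter, and among the other 50 there were 16 higher in liver, 22 higher in muscle and 12 not called. Of 12 proteases and inhibitors that act on binding proteins, 9 were higher in muscle and 3 in liver, or 6 and 2 of the 8 that passed the filter in both tissues. Of 26 receptor adaptors and members of the PI3K-AKT-mTOR pathway, which passes the receptor signal on, 10 were higher in muscle, 7 were higher in liver and 9 were not called. Of 8 genes of the growth hormone axis and insulin receptor list, 5 were higher in liver and 2 in muscle. Of 10 genes that bind IGF2 mRNA or control transcription of the family, 5 were higher in liver and 3 in muscle, or 2 and 3 of the 7 that passed in both tissues. Of 4 relatives of the binding proteins, 1 was higher in liver and 3 in muscle, or 0 and 2 of the 2 that passed in both.

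IGFALS, which encodes the acid-labile subunit that joins IGFBP3 and IGF, had 28.9 to 57.2 CPM in liver and 1.60 to 3.43 CPM in muscle. GHR, the growth hormone receptor, was higher in muscle, as IGF1 was, with 60.6 to 99.0 CPM against 20.05 to 32.1 CPM in liver (log2 fold change -1.68, SE 0.11, adjusted p = 3.71e-09). INSR had 138 to 154 CPM in liver and 97.4 to 137 CPM in muscle. PAPPA, a protease that cleaves IGFBP4, had 2.25 to 21.8 CPM in liver and 9.75 to 33.7 CPM in muscle, and its highest value in each tissue was in a Control fetus. The other Control value was the lowest of all livers, at 2.25 CPM. In muscle it was 12.5 CPM, inside the ART range of 9.75 to 17.0 CPM. STC2, which inhibits PAPPA, had 0 reads in the 6 livers and 120 to 222 reads in each muscle, and was at least 395-fold higher in muscle when liver was set to a floor of 3 reads over its 6 libraries. PLG, the precursor of plasmin, had 1762 to 2352 CPM in liver and at most 2.82 CPM in muscle, and the hepatic transcription factor HNF4A had 224 to 293 CPM and at most 0.450 CPM. LIN28B, a fetal RNA-binding protein, had 11.01 to 17.99 CPM in liver and 0.280 to 1.14 CPM in muscle.

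Between ART and Control, no pathway gene was called among 56 tested in liver and 54 tested in muscle. At an unadjusted p under 0.05 there were 4 in liver, which is 7.14% against 8.39% of all genes, and 8 in muscle, which is 14.8% against 9.19%. Those in liver included GHR (log2 fold change 0.45, SE 0.16), FOXO3 (0.32, SE 0.14) and AKT1 (-0.41, SE 0.15), named after their values were seen, and the lowest adjusted p of the 4 was 0.548. Without Control 2 these were 0.56, 0.36 and -0.36. Of the 8 in muscle, 7 had higher fitted values in ART, and the one with the lowest p, named after its values were seen, was RPTOR, a subunit of an mTOR complex (log2 fold change 0.87, SE 0.23, adjusted p = 0.317, and 0.61 without Control 2). The only one with a lower fitted value in ART was PAPPA, with a log2 fold change of -0.84 (SE 0.34, adjusted p = 0.489) that was 0.0220 without Control 2, and with 9.75 to 17.0 CPM in the ART fetuses and 12.5 and 33.7 CPM in the Controls. The log2 fold changes in muscle were 0.05 for STC2 (SE 0.29), 0.21 for GHR (SE 0.18) and 0.18 for INSR (SE 0.15), and without Control 2 they were 0.35, -0.0731 and 0.16. In liver they were 0.12 for IGFALS (SE 0.24) and -0.05 for INSR (SE 0.12), and 0.16 and 0.0044 without Control 2.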

How the data were processed

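RNA-seq counts of liver and skeletal muscle from ART 1 to 4 and Control 2 and 4 were analysed, and kidney was not analysed here. Per the labels, libraries were strand-specific after poly(A) selection, with paired reads of 150 bp. Gene counts were deposited by the authors as raw values, 1 table per tissue, and each of the 21048 listed lengths equals the gene span, so intronic reads were inside the counted regions. The submitters' processing notes name FastQC 0.11.7, HISAT2 2.1.0, Cufflinks, SAMtools, featureCounts and edgeR 3.24.3, with the build ARS-UCD1.2, and how strand was counted was not given in the sources used here. A further 14 count columns, 7 per tissue, matched no sample and were not used. The authors' tables of their own comparisons, with log2 fold changes, log2 CPM, likelihood ratios, p-values and FDR, were not used. Another 9 gene identifiers, none of a member, appear on 2 lines and both lines were kept.

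CPM, log2 fold changes, SE and two-sided p-values came from the quasi-likelihood F test of edgeR 4.0.16 in R 4.3.3 with TMM normalization, with Benjamini-Hochberg adjusted p of 0.05 or lower as the threshold. Genes were kept where every library of a group reached 5 CPM. ART and Control were compared within each tissue without covariates, and the tissues over all 12 libraries with conception group as a term. Each SE is the size of the log2 fold change divided by the square root of F. Printed levels used TMM factors over all 12 libraries. Ratios were tested with SciPy 1.17.1 after adding 0.5 to each count, and Python 3.11.15, pandas 2.3.3 and Matplotlib 3.10.9 made the tables and plots. The quasi-likelihood fits were run on simulated counts with known changes. The exact test of ratios was run only on a single simulated case in which all pairs shifted, so its p was fixed in advance. The alternatives were not simulated, and error rates are not reported here.

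The members and gene lists were chosen with earlier results of these data known. All 10 members were named in each comparison, and of the other pathway genes at most 10 per comparison, namely the largest changes past the threshold with IGFALS, GHR, INSR, H19, PAPPA and STC2. One pathway gene within that rule is not reported here. Liver and muscle of a fetus come from 1 animal and were treated as paired in a replicate block alternative of the tissue comparison and interaction. Between ART and Control within a tissue, the replicate block instead joined ART 2 with Control 2 and ART 4 with Control 4. These share a number only and are different animals. ART fetuses whose number no Control carries had no partner in that fit and added nothing to its difference. Deviations of the 2 tissues of a fetus from their group means correlated across 9553 genes at r of 0.47, 0.10, 0.08 and 0.60 in ART 1 to 4 and 0.65 in the Controls. Alternatives were RLE normalization, library size alone, the likelihood ratio test, DESeq2 1.42.0, no filter, a minimum of 10 counts in each library, the block, leaving out each fetus, the ART fetuses alone, a prior count of 5 for ratios, and, added after seeing the data, pathway genes without Control 2 and the ART fetuses alone with the block.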

Additional observations from a re-analysis of the deposited data

Results flagged for a closer look

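Within groups of 4 ART libraries, 2 values of the 20 groups checked (10 genes in 2 tissues) stood apart from the others by Dixon's gap test, which by chance marks about 1 group in 20. IGF2R in the liver of ART 2 was 613 CPM, below the other 3 ART livers at 707 to 719 CPM, and the gap was 0.881 of the range. IGFBP2 in the muscle of ART 4 was 35.9 CPM, below the other 3 ART muscles at 40.6 to 41.1 CPM, and the gap was 0.892 of the range. Leaving out either fetus brought neither gene past the threshold between ART and Control, and the cause of these values was not tested.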

How the results depend on the processing

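All 149 alternative values of the liver and muscle comparison, including those with the replicate block, kept their direction and their side of the threshold for the 10 members. The 11 ratios called between tissues fell to 0 to 0 when any 1 fetus was left out, because 5 pairs cannot pass the threshold in an exact test. Genes called between ART and Control in liver numbered 0 in the edgeR quasi-likelihood test, 6 with library size alone, 89 with the likelihood ratio test, 6 with the replicate block, 56 with DESeq2, and 0 to 830 when leaving out 1 fetus (830 without Control 4). In muscle they numbered 1, and 120 with the likelihood ratio test, 90 with the replicate block, 106 with DESeq2 and 0 to 1327 when leaving out 1 fetus (1327 without Control 4). Interaction calls numbered 0, 98 with the likelihood ratio test and 0 to 232 when leaving out 1 fetus. Between ART and Control, the replicate block joined fetuses that share a number. These are different fetuses, whose deviations correlated at 0.01 and -0.16 in liver and -0.08 and -0.27 in muscle. The block values of ART against Control therefore do not rest on tissues of the same animal. No member that was called changed direction. Log2 fold changes of members not called turned, in liver, with library size alone (IGF2 0.11, IGFBP2 0.0547, IGFBP3 0.11 and IGFBP5 0.24, where the median of all genes moved to 0.21), with the replicate block (IGFBP1 -0.42 and IGFBP5 0.0918), with no filter (IGFBP5 0.0070) and when leaving out 1 fetus (IGFBP3 -0.22 to 0.0080, IGFBP4 -0.0163 to 0.17 and IGFBP5 -0.42 to 0.51). In muscle they turned with library size alone (IGFBP5 -0.0063), with the replicate block (IGF1 0.00082) and when leaving out 1 fetus (IGF1 -0.37 to 0.39, IGF2R -0.16 to 0.0660, IGFBP5 -0.11 to 0.15 and IGFBP6 -0.18 to 0.51). The interaction turned for IGFBP5 with library size alone (0.25) and the replicate block (0.0309), and when leaving out 1 fetus for IGF1R (-0.45 to 0.0205), IGFBP5 (-0.28 to 0.38) and IGFBP6 (-0.0437 to 0.65). The cause was not tested. With 2 Control fetuses, differences as large as the intervals printed for each gene could not be resolved.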

Other observations

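The genes whose levels moved most like those of the ligands were sought over the 12 libraries among 9553 genes, after subtracting the mean of each tissue from log2 CPM. For IGF1 they were CBWD2, VPS41 and FBXW7, with Pearson's r of 0.93, 0.92 and 0.91. For IGF2 they were WDR47, TRIM47 and QSOX1, with r of 0.88, 0.86 and 0.84. These values describe likeness over libraries that share fetuses, groups and scaling, and carry no test.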
